A study of Mus musculus with 18 samples.

Results

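Immediate early genes are genes that neurons transcribe within minutes of a strong stimulus, before any protein has to be made. The 10 followed here were Fos, Fosb, Jun, Junb, Egr1, Egr2, Arc, Npas4, Nr4a1 and Dusp1. A probe set was taken for a gene when the platform annotation gave it that symbol and no other. All 10 genes were found, on 12 of the 34945 probe sets that carry 1 symbol, and they are 10 of the 18193 genes so measured. Jun and Egr2 each had a pair of probe sets, which were averaged.

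The study asked how dopamine neurons of the ventral tegmental area (VTA) and of the substantia nigra (SN) respond to MPTP. MPTP is a toxin that glia convert to MPP+, which enters dopamine neurons through the dopamine transporter and blocks mitochondrial respiration. All mice were adult C57Bl/6 carrying an hTH-GFP transgene and were housed singly for 9 weeks. The treated mice received MPTP at 4 mg/kg for 2 or for 10 days, and the controls received saline for 10 days, so the 2-day mice had no saline group of their own length. Some sample labels call the controls untreated where the protocols give saline. Every mouse was killed 7 days after its last injection, so the arrays show the neurons a week after dosing and not the hours in which a stimulus induces these genes. Dopamine neurons were taken from frozen brain by laser capture, and their RNA was amplified. Each of the 6 groups (SN and VTA, each after saline, 2 days of MPTP or 10 days of MPTP) had 3 arrays, 18 in all. The arrays are named by the replicate number in their titles. The labels call these biological replicates but neither tie an array to a mouse nor say how the neurons were recognised at capture. SN and VTA arrays may therefore come from the same mice.

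In neurons these genes are switched on when calcium and cyclic AMP signals reach the nucleus and phosphorylate factors already bound at their promoters, chiefly CREB at the cyclic AMP response element and SRF with its partners at the CArG box. Most of their products are transcription factors, some act at the synapse, and some shut the kinase signal off. In the brain they are widely used as a sign of recent neuronal activity or stress.

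The sequence just upstream of the start site was available from RefSeq (GRCm38.p6) for 8 of the 10 genes. They are shown because such a window can hold elements through which genes of this kind are induced, though that of Jun held none of those searched for. The 5 printed were picked after their values were seen, as Fos, Nr4a1 and Dusp1 had positive correlations with each other over the arrays and Jun and Npas4 a negative one, none of which passed adjustment over all pairs. Each line gives the 250 bases before the start, 5′ to 3′ on the strand of the gene. Capitals mark the core of the cyclic AMP response element (TGACG, or CGTCA when it lies on the other strand), the TATA box core (TATAAA) and the EGR site (GCGGGNGCG or GTGGGNGCG, on either strand).
Fos: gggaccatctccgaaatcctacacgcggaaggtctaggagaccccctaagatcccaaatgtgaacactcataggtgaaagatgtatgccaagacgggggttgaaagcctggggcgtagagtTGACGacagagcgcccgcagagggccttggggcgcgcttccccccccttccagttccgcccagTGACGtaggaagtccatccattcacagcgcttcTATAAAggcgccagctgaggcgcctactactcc
Nr4a1: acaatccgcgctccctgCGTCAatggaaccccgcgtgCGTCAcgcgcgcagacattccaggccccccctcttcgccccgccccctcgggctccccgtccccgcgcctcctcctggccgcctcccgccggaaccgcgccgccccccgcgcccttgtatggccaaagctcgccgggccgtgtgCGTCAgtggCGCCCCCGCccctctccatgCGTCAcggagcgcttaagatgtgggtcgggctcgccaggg
Dusp1: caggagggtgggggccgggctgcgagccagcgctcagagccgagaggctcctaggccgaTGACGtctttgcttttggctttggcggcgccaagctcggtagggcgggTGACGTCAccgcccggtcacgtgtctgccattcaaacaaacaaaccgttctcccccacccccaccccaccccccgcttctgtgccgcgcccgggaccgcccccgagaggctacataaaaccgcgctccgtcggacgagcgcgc
Npas4: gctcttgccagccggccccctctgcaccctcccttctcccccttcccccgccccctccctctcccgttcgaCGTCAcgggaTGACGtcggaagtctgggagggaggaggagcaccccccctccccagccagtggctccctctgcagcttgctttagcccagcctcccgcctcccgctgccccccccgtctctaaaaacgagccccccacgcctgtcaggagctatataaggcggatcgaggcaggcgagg
Jun: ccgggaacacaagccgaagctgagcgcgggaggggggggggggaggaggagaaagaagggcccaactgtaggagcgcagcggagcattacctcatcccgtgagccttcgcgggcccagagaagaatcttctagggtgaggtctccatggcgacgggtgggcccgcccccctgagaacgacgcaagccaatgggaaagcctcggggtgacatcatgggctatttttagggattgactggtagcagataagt
The Fos window is chr12:85473640-85473889 on the plus strand. The Nr4a1 window is chr15:101266596-101266845 on the plus strand. The windows of the other 3 genes are on the minus strand, at chr17:26508473-26508722 for Dusp1, chr19:4989972-4990221 for Npas4 and chr4:95052223-95052472 for Jun.

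The cyclic AMP response element core stood in the window of 7 of the 8 genes, Jun being without it, whereas 17.8% of the 32851 RefSeq windows of the same length held one. A gene counted when any of its windows held a match, only Egr2 having more than 1. The percentages are over single windows. Nr4a1 had 4 copies, which begin 233, 213, 69 and 40 bases before the start. Dusp1 had 3, at 191, 143 and 140 bases, of which the last 2 overlap in the palindrome TGACGTCA. Fos had 2, at 129 and 66 bases, and a TATA box core at 33 bases. Npas4 had 2, at 179 and 169 bases. The EGR site stood in Fosb and Nr4a1 (2 of 8, against 6.65% of all windows). The CArG box was found only in Egr2 (1 of 8, against 1.47%), which has 5 overlapping or neighbouring windows. The AP-1 site, TGANTCA, stood in 0 of 8 (6.75%), and the TATA box core in 1 of 8, Fos (12.4%). These are matches of letters in a short window and say nothing of whether a factor binds there, and a gene without a match may hold the element further upstream.

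The deposited values are log2 signals centred for each probe set on its median over the 18 arrays, so 0 is a gene's own middle. A difference of 1 is a doubling. Levels cannot be compared between genes, and no gene can be called absent. Differences between groups were tested with limma on 1 model of all 18 arrays, and p-values were adjusted by the Benjamini-Hochberg method over all 18193 genes, with 0.05 as threshold. In captured tissue, fewer cells of a type and less RNA per cell cannot be told apart.

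None of the 10 genes passed the threshold in any of the 13 comparisons made. At 2 days of MPTP most of them had a higher mean than after saline, 9 of 10 in SN and 8 of 10 in VTA, and at 10 days they did not. Their arrays scattered widely. The median within-group SD was 0.51 over the 10 genes and 0.24 over all genes. The SD of 8 of the 10 exceeded the all-gene median, and that of 6 (Fos, Fosb, Egr1, Egr2, Arc and Npas4) exceeded the 90th percentile of all genes. Junb, with an SD of 0.15, was the steadiest, and Egr2, with 0.90, varied most.

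**Figure D1:**
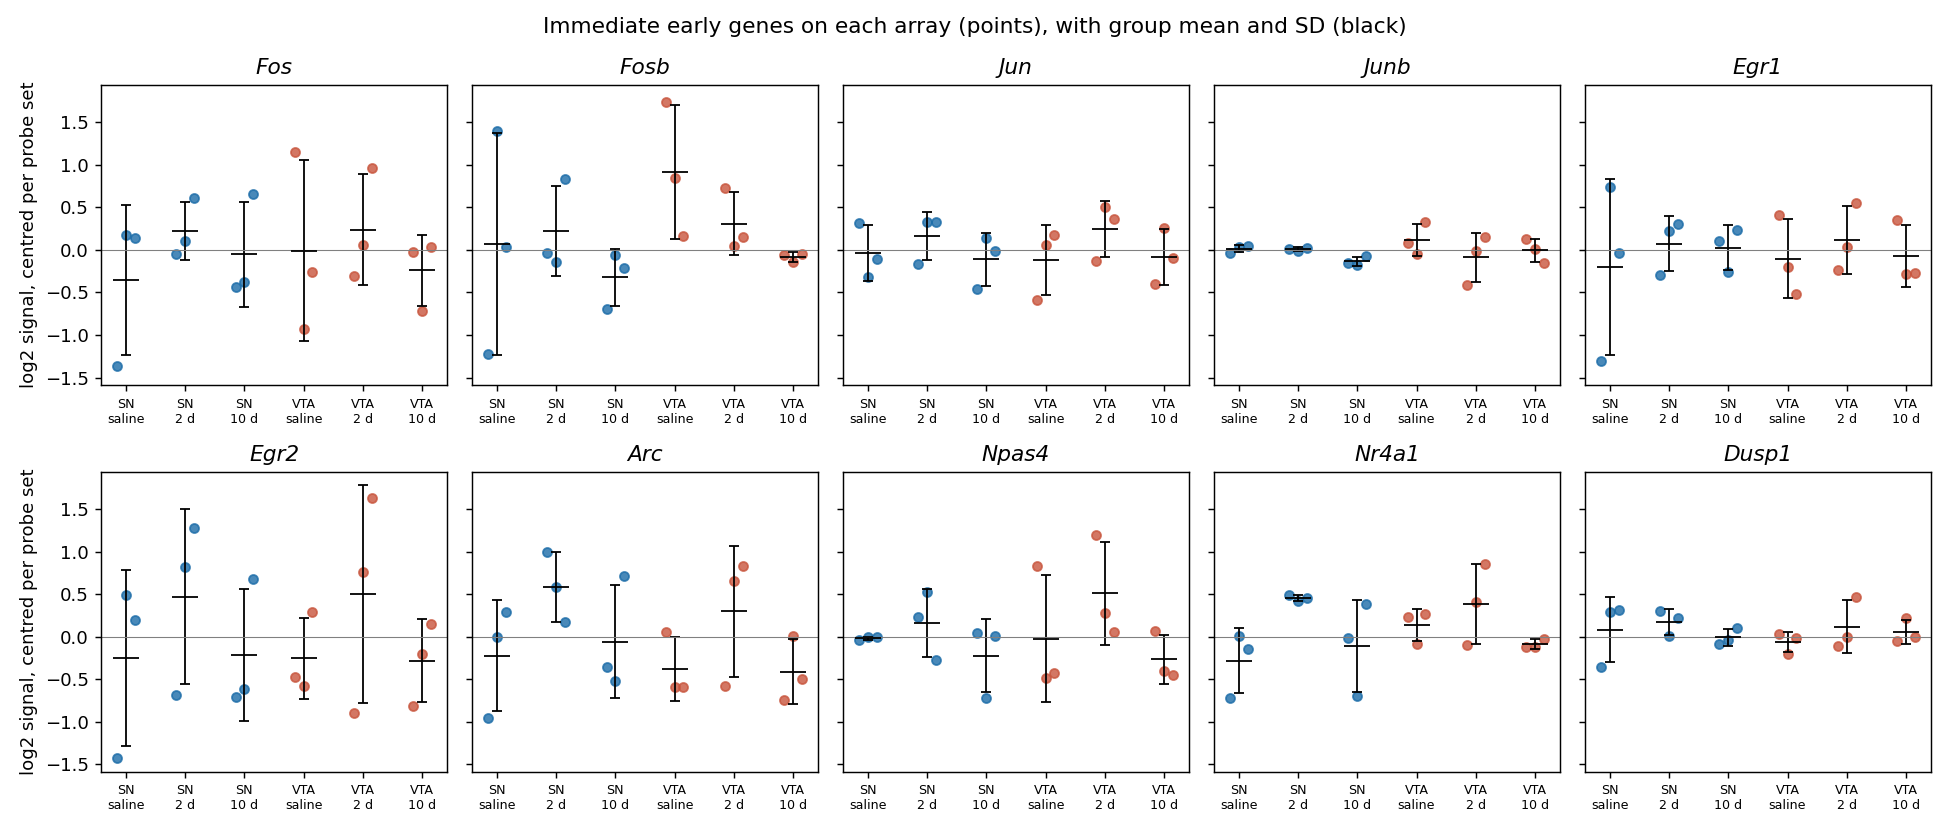
Centred log2 signal (vertical axis) of each immediate early gene on every array, by region and treatment (horizontal axis), with points in the order of the replicate number and black bars for the group mean and SD (n = 3). The groups overlap in most panels, and array 1 of SN saline is the lowest of all 18 arrays in 7 of the 10 genes.

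The Fos family members Fos and Fosb pair with Jun proteins to form AP-1, a transcription factor that carries a stimulus into lasting gene expression. In SN, Fos was at -1.37, 0.17 and 0.14 on saline arrays 1 to 3, at -0.04, 0.10 and 0.61 after 2 days of MPTP, and at -0.44, -0.37 and 0.66 after 10 days. In VTA the corresponding values of Fos were 1.15, -0.93 and -0.25, then -0.31, 0.06 and 0.97, then -0.03, -0.72 and 0.03. Both extremes of Fos over the 18 arrays were thus saline arrays, array 1 of SN and array 1 of VTA, and the groups overlapped throughout. The difference of Fos from saline at 2 days was 0.57 ± 0.51 (SE) in SN and 0.25 ± 0.51 in VTA, with limma adjusted p of 0.89 and 0.95.

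Fosb, whose truncated product ΔFosB is known to accumulate under repeated stimulation, gave a different picture in the VTA. Its SN values were -1.22, 1.40 and 0.03 after saline, -0.03, -0.14 and 0.84 after 2 days, and -0.70, -0.06 and -0.21 after 10 days. In VTA they were 1.74, 0.85 and 0.17 after saline, 0.73, 0.04 and 0.15 after 2 days, and -0.06, -0.14 and -0.05 after 10 days. All 3 VTA arrays at 10 days lay below every VTA saline array and below every 2-day array, and they lay close together (SD 0.05), while the SN saline arrays spanned almost the whole range seen for this gene. The difference at 10 days in VTA was -1.0 ± 0.50, with an interval (95%) of -2.06 to 0.05, an unadjusted p of 0.061 and a limma adjusted p of 0.91. It ran from -1.38 without VTA saline array 3 to -0.59 without VTA saline array 1. The 10-day difference in SN was -0.39 ± 0.50, and it moved to -1.04 without SN saline array 1 and VTA 2-day array 1, the 2 arrays of widest spread. The probe set does not tell full-length Fosb from its splice form.

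Jun and Junb are the Jun family members of AP-1, Jun the stronger activator. Jun ranged from -0.59 on VTA saline array 1 to 0.51 on VTA 2-day array 2. Its difference from saline at 2 days was 0.20 ± 0.25 in SN and 0.37 ± 0.25 in VTA, and at 10 days -0.07 ± 0.25 and 0.04 ± 0.25. Junb was nearly flat. It was at -0.04, 0.03 and 0.04 on the SN saline arrays, at 0.01, -0.01 and 0.03 after 2 days and at -0.15, -0.18 and -0.07 after 10 days. The 3 SN arrays at 10 days lay below those of both other SN groups, yet the difference from saline was small, -0.15 ± 0.14 (limma adjusted p = 0.98). In VTA, Junb differed from saline by -0.21 ± 0.14 at 2 days and by -0.13 ± 0.14 at 10 days.

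Nr4a1 encodes the orphan nuclear receptor Nur77, which acts without a known natural ligand and is induced by dopamine receptor signalling in target areas. On SN saline arrays 1 to 3 it was at -0.72, 0.01 and -0.14. After 2 days of MPTP the SN arrays were at 0.49, 0.42 and 0.46, and after 10 days at -0.01, -0.69 and 0.38. The 3 SN arrays at 2 days had an SD of 0.03 and all lay above the saline arrays and above the 10-day arrays. The difference at 2 days was 0.74 ± 0.26, or 1.67-fold, with an interval of 0.19 to 1.29. Its unadjusted p was 0.011, which 1.65% of all genes undercut, and the limma adjusted p was 0.65. Without SN saline array 1 the difference was 0.52, and without SN saline array 2 it was 0.89. In VTA the values of Nr4a1 were 0.23, -0.08 and 0.26 after saline, -0.10, 0.40 and 0.85 after 2 days, and -0.12, -0.12 and -0.02 after 10 days. There the 2-day arrays spread over the saline arrays on both sides, and the difference was 0.25 ± 0.26. The 2-day responses of Nr4a1 differed between the regions by -0.49 ± 0.37 (VTA minus SN, limma adjusted p = 0.9999), with an interval of -1.27 to 0.28.

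Egr1 and Egr2 are zinc finger factors that bind GC-rich sites and regulate synaptic and myelin genes. Egr1 was at -1.30, 0.74 and -0.04 on the SN saline arrays, so this group held its lowest and its highest value. Elsewhere Egr1 lay between -0.51 and 0.55, and its differences from saline ran from 0.04 ± 0.39 (VTA, 10 days) to 0.28 ± 0.39 (SN, 2 days). Egr2 in SN was at -1.43, 0.49 and 0.19 after saline and at -0.68, 0.82 and 1.28 after 2 days. In VTA it was at -0.48, -0.58 and 0.29 after saline and at -0.89, 0.77 and 1.62 after 2 days. In both regions array 1 at 2 days was low and the other 2 arrays were above every saline array. The 2-day difference of Egr2 was 0.72 ± 0.64 in SN and 0.75 ± 0.64 in VTA (limma adjusted p of 0.89 and 0.83), and at 10 days it was 0.03 ± 0.64 and -0.03 ± 0.64. Without array 1 of the 2-day group the 2-day difference was 1.30 in SN and 1.45 in VTA, still short of the threshold. Array 1 was also the lowest of its group in SN saline (-1.43) and at 10 days in SN (-0.71) and VTA (-0.81). In VTA saline it was at -0.48, with array 2 lower. These larger differences therefore leave out a low array on the 2-day side only.

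Npas4 is a transcription factor that calcium entry induces selectively in neurons. Its SN saline arrays lay close together, at -0.04, -0.01 and -0.005. After 2 days its SN arrays were at 0.23, 0.52 and -0.27, on both sides of these, and after 10 days at 0.04, -0.72 and 0.005. In VTA, Npas4 was at 0.84, -0.48 and -0.43 after saline, at 1.19, 0.28 and 0.06 after 2 days, and at 0.07, -0.41 and -0.46 after 10 days. In all 3 VTA groups array 1 was the highest. The 2-day difference in VTA was 0.54 ± 0.35 (limma adjusted p = 0.76), and 0.97 without VTA saline array 1. Between 10 and 2 days in VTA it was -0.78 ± 0.35, with an unadjusted p of 0.040 and a limma adjusted p of 0.77.

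Arc encodes a protein that travels to active synapses, where it promotes the uptake of AMPA receptors. On the SN arrays it was at -0.95, -0.004 and 0.29 after saline, at 0.99, 0.59 and 0.17 after 2 days, and at -0.36, -0.52 and 0.71 after 10 days. In VTA it was at 0.05, -0.59 and -0.60, then -0.58, 0.66 and 0.83, then -0.74, 0.004 and -0.50. In SN the 2-day arrays overlapped the saline arrays only in that 2-day array 3 lay below saline array 3, and in VTA only through the low 2-day array 1. The difference at 2 days was 0.81 ± 0.41 in SN (interval -0.06 to 1.67, limma adjusted p = 0.76) and 0.68 ± 0.41 in VTA (interval -0.19 to 1.54, limma adjusted p = 0.73). It was 0.44 in SN without saline array 1 and 1.12 in VTA without 2-day array 1. At 10 days it was 0.16 ± 0.41 in SN and -0.04 ± 0.41 in VTA.

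Dusp1 encodes a phosphatase that switches off MAP kinases and so limits the signal that induces the other genes. It stayed between -0.36 (SN saline array 1) and 0.47 (VTA 2-day array 3). Its differences from saline were 0.09 ± 0.18 and 0.18 ± 0.18 at 2 days in SN and VTA, and -0.09 ± 0.18 and 0.12 ± 0.18 at 10 days.

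When the 6 group means of a gene were put in order, the 2-day groups of SN and VTA held the first and second places for 8 of the 10 genes, all but Fosb and Junb. Over the 10 genes there were 50 steps between neighbours in these orders. In 0 of them were the arrays of the neighbouring groups apart. In 1 the gap exceeded the larger SD of the pair, for Nr4a1 between VTA saline and VTA 10 days (0.23 against 0.19), and the other neighbours did not differ beyond their spread. Neighbours in such an order are the groups closest in mean, so these counts say nothing of groups farther apart in it. The Nr4a1 arrays of SN 2 days and SN saline, the first and last groups of its order, were apart.

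After 2 days of MPTP in SN, the median difference from saline over the 10 genes was 0.24, whereas that over all genes was -0.03. Of the 10 genes 9 were higher, and 44.7% of all genes were higher. None passed the adjusted threshold, and neither did any other gene (0% of 18193). At an unadjusted p under 0.05 there was 1 of the 10, Nr4a1, beside 6.65% of all genes. The arrays did not overlap for 1 of the 10, again Nr4a1, beside 5.96% of all genes higher in this way. These values depended on which control arrays were kept. Array 1 of SN saline had a mean of -0.71 over the 10 genes, while saline arrays 2 and 3 had 0.28 and 0.07 and the 2-day arrays 0.08, 0.29 and 0.40. The median over the 10 genes was 0.10 without that array and 0.78 without saline array 2. Without SN saline array 1 and VTA 2-day array 1, 6 of the 10 genes were higher and 4 lower. Fosb then stood at -0.49, and Egr1 at -0.28 without SN saline array 1 alone, while Nr4a1 and Arc kept differences of 0.52 and 0.44.

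After 2 days in VTA the median difference over the 10 genes was 0.25, and over all genes -0.01. Of the 10 genes 8 were higher, and 48.4% of all genes were. The 2 lower genes were Fosb, at -0.61 ± 0.50, and Junb. None of the 10 passed, and 0.011% of all genes did. There were 0 of the 10 at an unadjusted p under 0.05 (8.06% of all genes), and in 0 of the 10 were the arrays apart (5.1% of all genes higher and 4.92% lower in this way). Array 3 of the 2-day group was above 0 for all 10 genes and was the highest of the 18 arrays for 3 of them (Egr2, Nr4a1 and Dusp1), with a mean of 0.60. Arrays 1 and 2 of that group had means of -0.09 and 0.27, and the VTA saline arrays 0.35, -0.22 and -0.06. The median over the 10 genes was 0.01 without that array 3 and 0.44 without array 1.

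**Figure D2:**
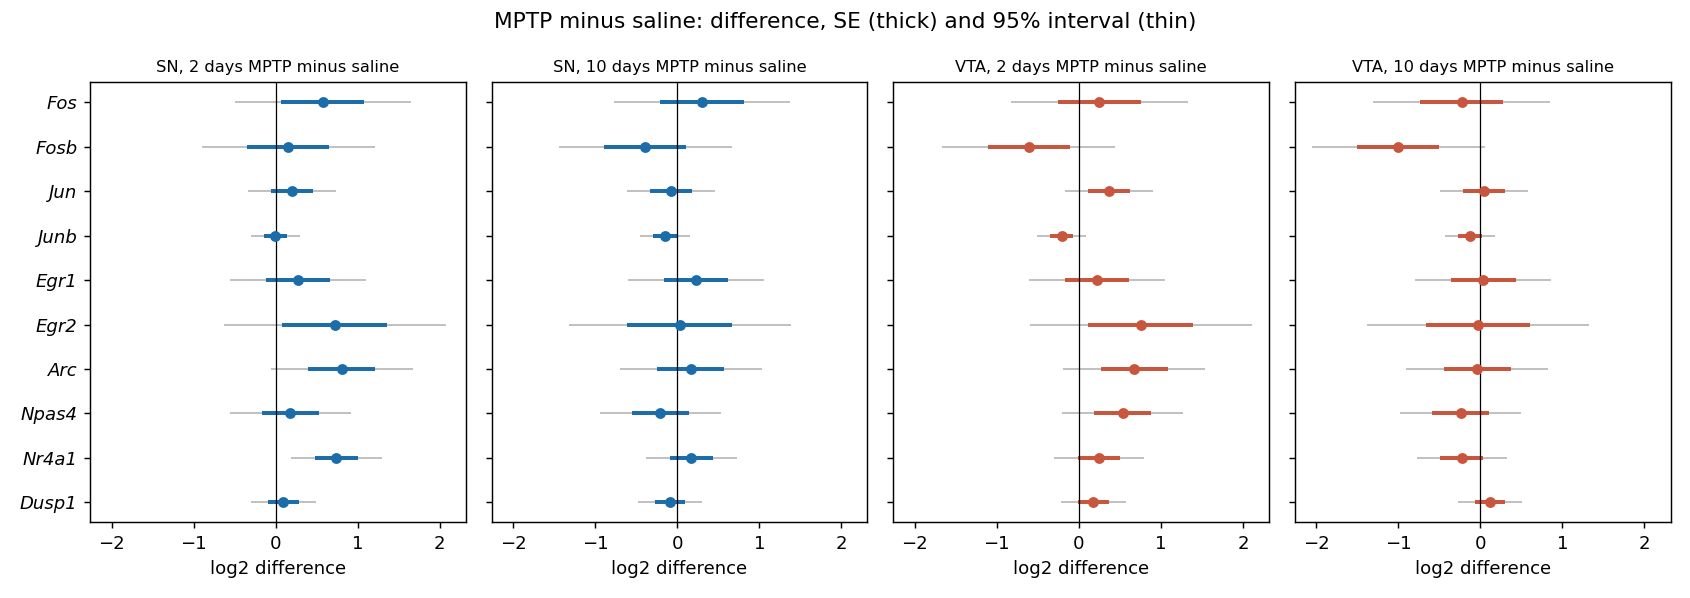
Log2 difference from saline (horizontal axis) of each immediate early gene (rows of points) in SN and VTA after 2 and 10 days of MPTP, with the SE as a thick bar and the 95% interval as a thin one. Apart from Nr4a1 in SN at 2 days, whose interval is 0.19 to 1.29, every interval spans 0.

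After 10 days the genes stood on both sides of saline. In SN 5 of 10 were higher and 5 lower, beside 46.6% of all genes higher, with a median of -0.02 against -0.02 over all genes. This even split depended on which SN saline arrays were kept. With array weights, and again without the 2 arrays of widest spread, 1 gene was higher and 9 lower, with medians of -0.16 and -0.21. The median was -0.21 without SN saline array 1 alone and 0.27 without SN saline array 2. None of the 10 passed, and 0.0055% of all genes did, and 0 of the 10 had an unadjusted p under 0.05 (5.57%). Junb was the 1 gene whose arrays were all lower, beside 6.27% of all genes. In VTA 3 of 10 were higher (49.1% of all genes) and 7 lower, with a median of -0.08 against a median of -0.005 over all genes. None of the 10 passed (0.011% of all genes), 0 had an unadjusted p under 0.05 (5.41%), and Fosb was the 1 gene whose arrays were all lower (4.53%). The VTA median ran from -0.20 without VTA saline array 2 to 0.01 without VTA saline array 1. The 3 VTA arrays at 10 days were the most alike of any group in their mean over the 10 genes, at -0.17, -0.14 and -0.14.

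Set directly against each other, the 10-day arrays were lower than the 2-day arrays for 10 of 10 genes in SN and for 9 of 10 in VTA, Junb being the exception, while 52.1% of all genes in SN and 50.1% in VTA were higher at 10 days. The median difference was -0.33 in SN and -0.43 in VTA, and over all genes 0.01 and 0.0002. None of the 10 passed in either region, where 0.0165% and 0.033% of all genes did. At an unadjusted p under 0.05 there was Nr4a1 in SN (-0.57 ± 0.26, limma adjusted p = 0.9998), beside 3.02% of all genes, and Npas4 in VTA, beside 6.34%. The arrays were apart and lower at 10 days for Junb and Nr4a1 in SN (5.02% of all genes) and for Fosb in VTA (5.13%). Single arrays moved these values. Nr4a1 in SN was at -0.27 without SN 10-day array 2, and Npas4 in VTA at -0.43 without VTA 2-day array 1. The SN median ran from -0.55 without SN 10-day array 3 to -0.21 without SN 2-day array 3, and the VTA median reached -0.23 without VTA 2-day array 3. These differences use the same 2-day arrays as the comparisons with saline.

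Averaged over both regions, Nr4a1 was 0.49 ± 0.18 higher after 2 days of MPTP than after saline and Arc 0.74 ± 0.29, or 1.41-fold and 1.67-fold. The unadjusted p was 0.016 for Nr4a1 and 0.021 for Arc, and the limma adjusted p was 0.31 and 0.34. Of the 10 genes 8 were higher (45.3% of all genes), with a median of 0.32, and 2 had an unadjusted p under 0.05, beside 11.1% of all genes. None passed, and 0.0879% of all genes did. With treatment and replicate number together as a random block, which allows SN and VTA arrays of a number to share mice, the adjusted p was 0.50 for Nr4a1 and 0.57 for Arc. At 10 days the same average gave a median of -0.01, with 5 genes higher (46.6% of all genes) and 5 lower and none called (0.0385% of all genes), Fosb lying lowest at -0.70. Without the 2 arrays of widest spread it gave 1 higher and 9 lower, with a median of -0.15.

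No difference between the regions passed either. After saline 5 of the 10 genes were higher in VTA than in SN (50% of all genes) and 5 lower, with a median of 0.05. Fosb had the largest difference over all arrays, 0.85 ± 0.50, but it was 0.20 without SN saline array 1 and 1.51 without SN saline array 2. Without SN saline array 1 the median was -0.09, and Egr2 (-0.60) and Arc (-0.52) lay farther from 0 than Fosb. After 2 days 6 were higher in VTA and 4 lower, and after 10 days 5 and 5, beside 53.7% and 51.1% of all genes higher. The response to MPTP differed between the regions (VTA minus SN) by -0.76 ± 0.70 for Fosb at 2 days and by -0.61 ± 0.70 at 10 days, and over the 10 genes by a median of -0.09 and -0.13. Without SN saline array 1 the difference in response of Fosb was -0.12 at 2 days and 0.03 at 10 days. Called genes numbered 0 of 10 in each of these 5 comparisons, as over all genes (0%). The median of the 2-day regional difference was 0.30 without the 2 arrays of widest spread, so its sign rests on them.

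The genes were also compared with each other, by correlating over the 18 arrays their deviations from the group means, so that treatment and region play no part. Of the 45 pairs 33 had a Pearson r above 0, with a median of 0.40. Among all pairs of the 18193 genes 50.6% were above 0, and 12.2% reached that median. The highest value was that of Arc with Nr4a1 (r = 0.78, exact permutation p = 0.0098, Spearman rho = 0.72, exact permutation p = 0.013). Fos with Egr1 had r = 0.77 (exact permutation p = 0.0042) and rho = 0.81 (exact permutation p = 0.0026). After leaving out the 2 arrays farthest in the first gene, r was 0.66 for Arc with Nr4a1 and 0.73 for Fos with Egr1. With Benjamini-Hochberg adjustment over the 45 pairs 0 passed 0.05, the smallest adjusted exact permutation p being 0.061 for r and 0.070 for rho. The permutation treats SN and VTA arrays as independent, so all its p-values may be too small if these arrays share mice. It also takes the arrays of a group as exchangeable. The same limit holds if arrays of one replicate number are alike across groups.

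Among the genes Fos, Egr1, Egr2, Arc, Nr4a1 and Dusp1, a set of 6 picked after their values were seen, every r lay between 0.48 and 0.78. Without the 2 arrays of widest spread, these r ran from 0.05 to 0.63, with a median of 0.42 in place of 0.63. For Jun, r was -0.72 with Npas4 (exact permutation p = 0.013, adjusted exact permutation p = 0.061), and -0.71 without the 2 widest arrays. Jun was lowest on array 1 in every group but SN saline, where array 1 was its highest. Npas4 was highest on array 1 in every VTA group and in SN at 10 days. This negative r thus largely follows the replicate number. For Jun, the other r were as follows. The r of Jun was -0.50 with Fosb and -0.45 with Egr1 (adjusted exact permutation p of 0.21 and 0.23), and above 0 with Egr2 (0.33) and Junb (0.26). Where Npas4 was highest, on VTA 2-day array 1, Jun was at -0.13, and where Jun was lowest, on VTA saline array 1, Npas4 was at 0.84. Where Jun was highest, on VTA 2-day array 2, Npas4 was also above its middle, at 0.28. Npas4 had r of 0.24 with Fos and 0.01 with Arc.

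**Figure D3:**
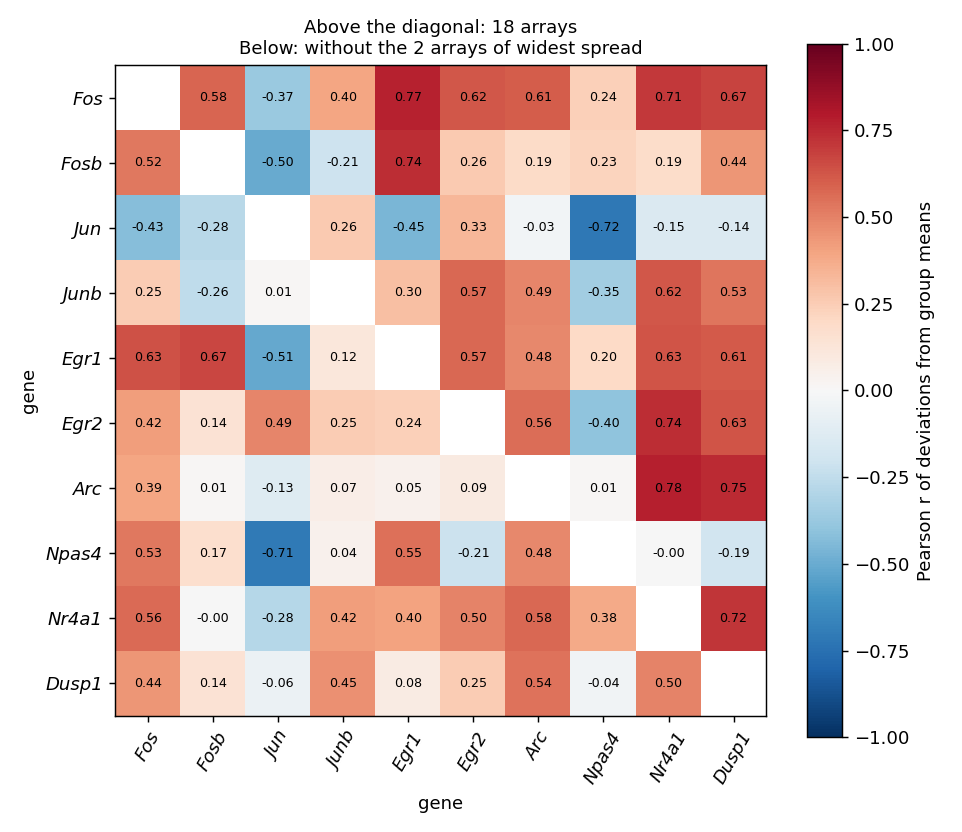
Pearson r between the deviations of each pair of immediate early genes (both axes) from their group means, as colour and number, over 18 arrays above the diagonal and without the 2 arrays of widest spread below it. Arc with Nr4a1 is highest above the diagonal, at 0.78, and Jun with Npas4 lowest, at -0.72.

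Over the 18 arrays as they stand, the genes outside the set whose pattern was most like the mean of the 10 were Arnt2 (r = 0.88), Dio2 (0.87), Otud1 (0.84), Gpt2 (0.83) and Tekt4 (0.82). Dapp1 (r = 0.87), Hivep2 (0.81), Arnt2 (0.80), Dio2 (0.79) and Glt8d2 (0.77) were most like Fos. These are the highest of 18193 genes over the same arrays and are given as a description.

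Of the wider family of stimulus-induced genes and of the kinases and factors that induce them, 83 were listed and 74 measured with 1 symbol. None was called in any of the 13 comparisons. In SN at 2 days 51 were higher and 23 lower, with a median of 0.15, and in VTA 44 and 30, with a median of 0.07. At 10 days 34 were higher in SN and 40 lower, and in VTA 40 and 34. The arrays were apart from saline for few of the 74. In SN at 2 days 6 were so higher and 3 lower, beside 5.96% and 8.56% of all genes, and at 10 days 3 and 5, beside 5% and 6.27%. In VTA at 2 days they were 4 and 4, beside 5.1% and 4.92%, and at 10 days 3 and 2, beside 4.77% and 4.53%. These counts are near the share over all genes. The genes named from here on are among those with arrays apart from saline, up to 3 each way per list and comparison. The kinases and factors upstream of the immediate early genes, 18 measured of 24 listed, had 16 higher in SN at 2 days with a median of 0.20, and 12 higher in VTA with a median of 0.11. Camk2a, a subunit of the calcium-dependent kinase CaMKII, was at 0.24, 0.35 and 0.58 in SN at 2 days against -0.30, 0.08 and -0.18 after saline. Its difference was 0.52 ± 0.17 in SN and 0.53 ± 0.17 in VTA, with the arrays apart in both, and limma adjusted p of 0.65 and 0.44. Creb1, which encodes CREB, differed by 0.31 ± 0.11 in SN (limma adjusted p = 0.65) and by 0.16 ± 0.11 in VTA, also with the arrays apart. Map2k1, the MAP kinase kinase MEK1, was higher in SN at 2 days (0.22 ± 0.13). At 10 days Mef2a (0.19 ± 0.17) and Rps6ka5 (0.28 ± 0.31) were higher in SN and Crtc2, a CREB coactivator, in VTA (0.24 ± 0.11).

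The other subunits that can join AP-1 were 8, of which 5 were higher and 3 lower at 2 days in each region. Maff, a small Maf protein, was the one whose SN arrays were all lower at both times, by -0.72 ± 0.37 and -0.79 ± 0.37. Among the 6 other EGR and NR4A factors and their partners, 5 were higher in SN at 2 days (median 0.25) and 3 in VTA. Nab2, a corepressor that EGR factors induce and that restrains them, was higher on all 2-day SN arrays (0.25 ± 0.26) and on all 10-day VTA arrays (0.60 ± 0.26) than after saline. Nr4a2, which encodes Nurr1, a factor dopamine neurons need, was lower on all 10-day SN arrays (-0.35 ± 0.14) and on all 2-day VTA arrays (-0.22 ± 0.14). Of the 7 other MAP kinase phosphatases, relatives of Dusp1, 5 were higher at 2 days in each region, and Dusp4 in VTA was at 0.003, 0.01 and 0.63 against -0.01, -1.02 and -0.48 (difference 0.72 ± 0.31, limma adjusted p = 0.59). Dusp10 was lower on all 2-day VTA arrays (-0.37 ± 0.19, limma adjusted p = 0.66). The 16 other induced regulators were split 8 and 8 in SN at 2 days and 10 and 6 in VTA. Klf4, a Krüppel-like factor, was lower on all SN 2-day arrays (-0.47 ± 0.18), and Ier2 was higher on all VTA arrays at 2 days (0.33 ± 0.19) and at 10 days (0.40 ± 0.19). Per1, a clock gene, and Sik1, a kinase, were lower on all SN 10-day arrays (-0.65 ± 0.33 and -0.16 ± 0.15), and Klf2 on all VTA 10-day arrays (-0.51 ± 0.29). Of the activity-regulated effectors 19 of 22 were measured, 12 higher and 7 lower in SN at 2 days and 9 and 10 in VTA. In SN, Tiparp was higher (0.31 ± 0.20 at 2 days and 0.22 ± 0.20 at 10 days) and Pim1, a kinase, lower (-0.29 ± 0.15 and -0.26 ± 0.15). At 2 days in VTA, Pim1 (-0.11 ± 0.15) and Scg2, a secretogranin, (-0.26 ± 0.16) were lower. Ptgs2, the inducible cyclooxygenase, was lower on all VTA 10-day arrays by -0.86 ± 0.42, and none of these differences passed the adjusted test.

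**Figure D4:**
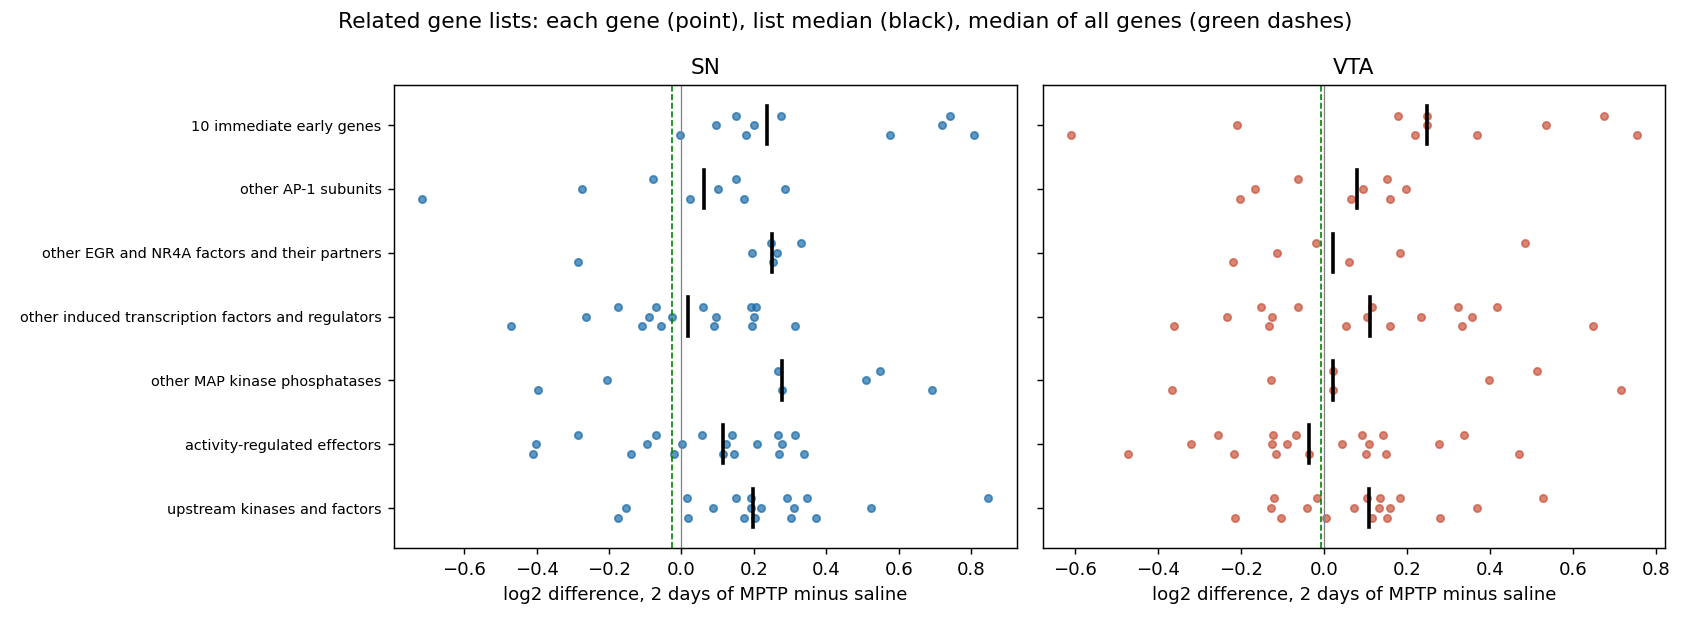
Log2 difference between 2 days of MPTP and saline (horizontal axis) of each gene of the related lists (vertical axis) in SN and VTA, with the list median as a black bar and the median of all genes as a green dashed line. The medians of the 10 immediate early genes are 0.24 in SN and 0.25 in VTA, and genes of every list lie on both sides of 0 in both regions.

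The captured cells were checked against lists of marker genes, of which none was called in any comparison with saline. The 13 dopamine neuron markers were lower in SN at 2 days in 13 of 13 cases, with a median difference of -0.96, and in VTA in 12 of 13, with a median of -0.42. At 10 days, when the immediate early genes were not mostly higher, they were lower in 13 of 13 cases in SN (median -0.46) and in 12 of 13 in VTA (median -0.21). Their arrays were apart and lower in SN for 12 of 13 at 2 days (8.56% of all genes) and for 7 of 13 at 10 days (6.27%). In VTA they were so for 1 of 13 at 2 days (4.92%) and for 0 of 13 at 10 days (4.53%). Their mean was 0.35 to 0.97 on the SN saline arrays and -0.44 to -0.08 on the 2-day arrays. Th, the rate-limiting enzyme of dopamine synthesis, differed by -1.29 ± 0.52 in SN and Slc6a3, the dopamine transporter, by -0.96 ± 0.37, neither past the adjusted threshold (limma adjusted p of 0.70 and 0.68). SN saline array 1, lowest in 7 of the 10 immediate early genes, was the highest of its group in these markers (0.97). VTA saline array 1, where Fos and Fosb were highest, was the lowest of its group (-0.53). In contrast, VTA 2-day array 1 was the lowest of its group in these markers (-0.62) and in the mean of the 10 genes (-0.09). SN 10-day array 3 was the highest of its group in both (0.37 and 0.25). Astrocyte markers were higher in SN at 2 days for 9 of 11 (median 0.32) and lower in VTA for 10 of 11 (median -0.16). Their arrays were apart and higher in SN for 5 of 11 (5.96% of all genes). In VTA they were apart and lower for 2 of 11 (4.92%). Oligodendrocyte markers were lower at 2 days for 7 of 9 in SN (median -0.16) and 9 of 9 in VTA (-0.39). Markers of their precursors were lower for 3 of 5 (-0.05) and 4 of 5 (-0.45), and microglia markers for 7 of 11 (-0.09) and 9 of 11 (-0.30). Arrays were apart and lower at 2 days for 0 of 9 oligodendrocyte markers in SN and 3 of 9 in VTA. For the precursor markers they were so for 0 of 5 and 2 of 5, beside 8.56% and 4.92% of all genes. Ependyma and choroid plexus markers were higher for 3 of 6 in SN (0.01) and 6 of 6 in VTA (0.41), and erythrocyte markers lower for 3 of 3 (-0.67) and 2 of 3 (-0.01). At 10 days astrocyte markers were higher for 9 of 11 in SN (0.18) and lower for 8 of 11 in VTA (-0.07). Oligodendrocyte markers were then lower for 8 of 9 in SN (-0.20) and 9 of 9 in VTA (-0.27). The mean of the ependyma and choroid plexus markers was 0.83 at 10 days in SN, against -0.34 after saline. In VTA it was 0.21 against -0.30. Over the deviations of the 18 arrays from their group means, given as a description, the mean of the 10 genes had a Pearson r of -0.21 with the dopamine neuron markers and 0.52 with the astrocyte markers. It had r of 0.61 with the 11 microglia markers and 0.50 with the 8 endothelium markers measured. The corresponding r was 0.31 for the 9 oligodendrocyte markers and 0.09 for the 5 markers of their precursors, 0.08 for the 4 GABA neuron markers and 0.42 for the 6 markers of other neurons. It was 0.17 for the 3 erythrocyte markers and 0.36 for the 6 ependyma and choroid plexus markers. Without the 2 arrays farthest in the markers, r was -0.08 for dopamine neurons, 0.42 for astrocytes, 0.62 for microglia and 0.49 for endothelium. It was then 0.02 for oligodendrocytes, 0.13 for their precursors, 0.26 for GABA neurons, 0.04 for other neurons, 0.15 for erythrocytes and 0.30 for ependyma. Spearman's rho over the 18 arrays was -0.01 for dopamine neurons, 0.52 for astrocytes, 0.68 for microglia and 0.60 for endothelium. What part these cells have in the values of the immediate early genes was not tested.

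The arrays otherwise differed little in their centre, with medians between -0.01 and 0.02, and no array was identical to another. The median absolute deviation over all probe sets was widest on VTA 2-day array 1 (0.27) and SN saline array 1 (0.24), and lay between 0.12 and 0.20 on the others. Junb, the steadiest of the 10 genes, had its lowest value (-0.41) on the first of these arrays, and Fos, Fosb, Egr1, Egr2, Arc, Nr4a1 and Dusp1 had theirs on the second.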

How the data were processed

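The deposited series table holds 1 value per probe set and array for 45101 probe sets on 18 arrays. Per the series' design text, the authors log2-transformed the values and normalized them by RMA in Agilent Genespring GX 10.0. Each probe set has a median of 0 over its 18 values, a centring that the sources used here do not describe, so levels, detection and a filter on dim probe sets were not used. Probe sets with 1 gene symbol in the platform annotation (34945) were averaged to 18193 genes, since a centred value gives no ground for choosing among them. Group differences were fitted with limma 3.58.1 in R 4.3.3, with 12 residual and 4.06 prior degrees of freedom, an SE from the moderated variance and Benjamini-Hochberg adjustment over all genes. Probe sets are identified as on Affymetrix arrays. Correlations within groups were tested by exact permutation of the 3 arrays within each group, 46656 orders in all, with NumPy 2.4.6 in Python 3.11.15, a step added after the data were seen. The fit was tested on simulated data.

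The 10 genes and the related and marker lists were chosen with earlier results of these data known. All 10 genes are named. From each related list, genes were eligible for naming by the smallest p among those whose arrays did not overlap, up to 3 each way per comparison, and those from the comparisons with saline are printed. The genes of most similar pattern are the 5 of highest r. Replicate numbers did not meet the rule for pairing, since 7 of the 9 pairs of SN and VTA arrays with the same treatment and number correlated above 0.1 in their deviations, so the reported model has no block, and fits with one are alternatives.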

Additional observations from a re-analysis of the deposited data

How the results depend on the processing

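With 28 alternative settings in 13 comparisons, 0 of 364 counts of the 10 genes called were above 0. The settings were other rules for probe sets, other centring, only the groups compared, array weights, both blocks, the 2 arrays of widest spread left out and each of the 18 arrays left out in turn, with 0 called each time. The smallest limma adjusted p of any of the 10 genes was 0.14, for Nr4a1 and Arc with array weights, over both regions at 2 days. The replicate block left 0 of the 10 called in every comparison, with a smallest adjusted p of 0.24, and the random replicate block gave 0.50 with a correlation of 0.19. The numbers may mark shared mice, as 17 of 18 arrays correlated best with their own number in the other region, a hint from the data and not the design. Over any 2 groups, 22 of 45 pairs of the same number correlated above 0.1, with r from -0.14 to 0.36. Some of these 22 were of different treatments, which cannot share mice, such as SN saline and SN 2-day array 1 (r = 0.19). What the numbers mark was not tested. Of 3640 differences of single genes 65 moved by over 1 SE and 252 changed sign, none of them called. Of 364 medians over the 10 genes 40 changed sign and 3 moved by more than the spread between arrays. With 3 arrays in a group, SEs of 0.14 to 0.64 limit what could be called, and a difference that missed the threshold is not shown to be absent.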
